A study of Homo sapiens with 12 samples.

Results

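WT MDA-MB-231 cells stimulated for 6 h with PMA and Ionomycin were compared with WT cells at 0 h, across all genes. The members are 4 of the 12 RNA-sequencing libraries of the series, 2 at 0 h and 2 at 6 h, identified by their labels. MDA-MB-231 is a human breast cancer cell line of a mesenchymal, hormone receptor negative type, and WT means that the cells carry no engineered deletion. The other libraries of the series are WT cells at 24 h and ΔCRE cells, in which an element upstream of the ETS1 gene was deleted, at 0, 6 and 24 h. The series describes a mock group and a PMA/Ionomycin group, and 0 h was read as the mock group. No WT library was kept in culture for 6 h without the stimulus, so that the effect of PMA/Ionomycin and that of 6 h in culture cannot be told apart. All the values belong to 1 cell line, the doses are not given in the sources used here, and the study's methods call the 2 libraries of a group biological replicates without saying what was kept separate, so that the p-values measure the spread between these libraries, which may be in part technical.

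PMA is a phorbol ester that stands in for diacylglycerol and switches on protein kinase C, and through it the MAP kinase cascade and the NF-kB factors. Ionomycin carries calcium across membranes, and the calcium activates the phosphatase calcineurin, which lets NFAT factors enter the nucleus. Genes that answer within minutes to hours encode transcription factors of the AP-1, EGR and NF-kB families, the inhibitors that switch these pathways off again, and secreted cytokines and chemokines.

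The level of a gene is given as FPKM, the number of sequenced fragments scaled to the length of the transcript and to the number of mapped fragments, so that levels can be compared between genes. Changes are given as the difference of log2(FPKM + 1), called log2 change here, with its standard error (SE). On this scale changes are understated at low levels, most of all under about 1 FPKM and to a lesser degree at several FPKM. A fall that ends at a few FPKM is understated too. Of the 24331 features in the deposited table, 16629 were above 0 in at least 1 of the 4 libraries and 11160 had a mean of at least 1 FPKM over them and were tested. A gene was called when its adjusted p in limma, with Benjamini-Hochberg adjustment over all tested features, was under 0.05. The filter acts unevenly: a gene near 0 FPKM at 0 h was tested only if it was higher at 6 h, so that counts and medians over tested members lean towards rises in lists with many low genes.

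The response was broad, and more of its large changes were rises than falls, by a margin that depended on the scaling. Of the tested features 2326 (20.8%) were higher at 6 h and 2101 (18.8%) were lower. The counts of called members in the gene lists below are to be read beside these shares. When a change of at least 2-fold on the log2(FPKM + 1) scale was also asked for, 319 (2.86%) were higher and 109 (0.977%) were lower. These counts were 293 and 218 after rescaling to TPM and 425 and 250 with a pseudocount of 0.1. Rescaling the libraries to TPM lowered the median log2 change of all features from -0.0047 to -0.12 and brought the share of higher calls down from 52.5% to 33.9%, while all 428 features changed at least 2-fold were still called. The smaller changes are therefore read only relative to that shift. Without WT 6 h replicate 1 the number of calls fell from 4427 to 2196 and without WT 6 h replicate 2 to 2455, and in a fit of all 12 libraries of the series it was 910. In that last fit 331 of the 428 were still called. It includes ΔCRE 0 h replicate 1, which stands apart and whose spread enters the test of every gene. This holds for each call given below as lost with all 12 libraries.

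Short RNAs took 14 of the 319 higher and 5 of the 109 lower features. In libraries made from polyadenylated RNA such entries can be at 0 in a library and high in its replicate, and they are not described further. Without them and without features that name several genes, 302 genes were at least 2-fold higher and 102 at least 2-fold lower. On the log2(FPKM + 1) scale 76 of the 302 rose at least 4-fold, 28 at least 8-fold and 12 at least 16-fold, against 5, 0 and 0 of the 102. Since falls to a few FPKM are understated on this scale, these counts do not compare rises and falls on equal terms. The median level of the rising genes was 6.18 FPKM at 0 h and 24.1 FPKM at 6 h, while that of the falling genes was 10 FPKM at 0 h and 3.53 FPKM at 6 h. The loci of the rising genes were also shorter, with a median span of 19.7 kb against 33 kb for the falling genes and 33.1 kb for all tested genes.

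**Figure D1:**
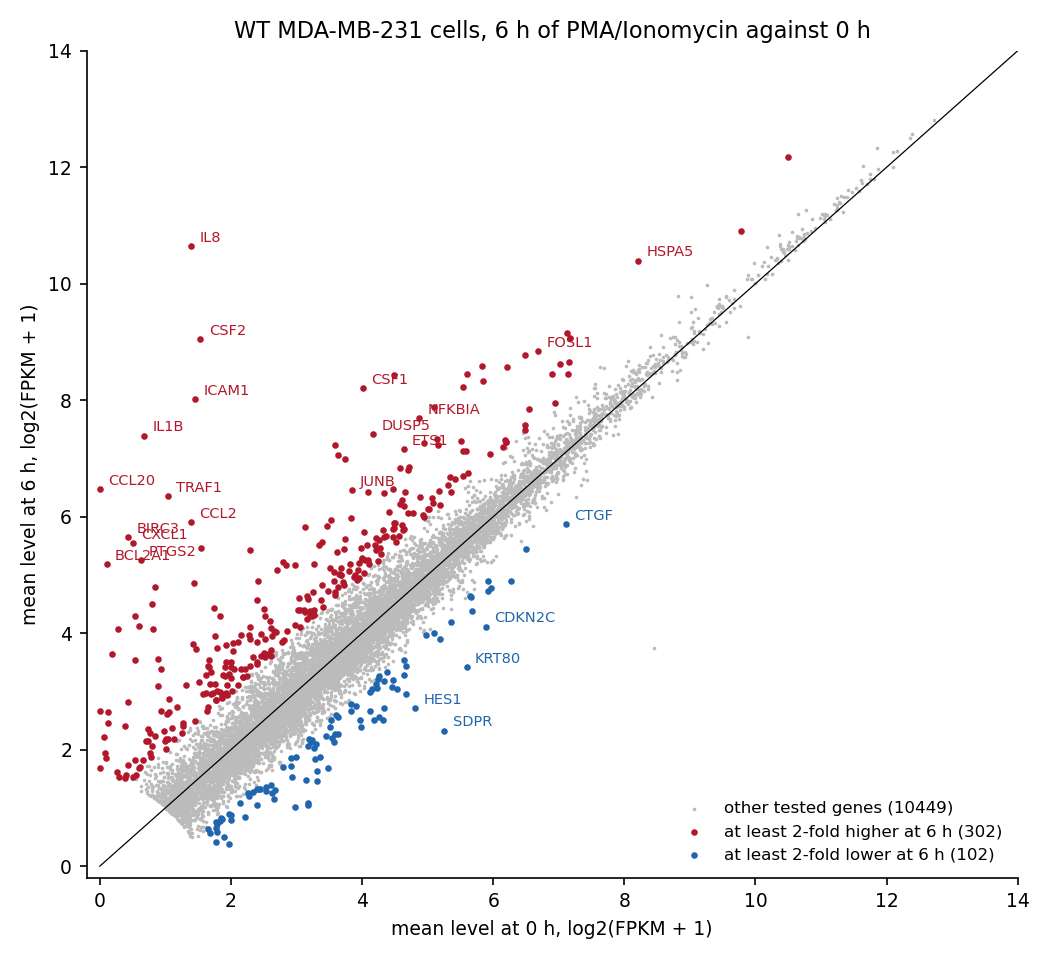
Mean level of each tested gene in WT cells at 0 h (x axis) and at 6 h (y axis), both as log2(FPKM + 1) over 2 libraries. Red points are the 302 genes at least 2-fold higher at 6 h, blue points the 102 at least 2-fold lower and grey points the other tested genes. IL8 lies furthest above the line of equal levels.

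The libraries and cells were checked before the genes were read. Across tested features the 2 libraries at 0 h correlated with an r of 0.977 and the 2 at 6 h with an r of 0.979, against 0.936 to 0.945 between the times. The depth of a library is not stated, but the steps of low FPKM values put the 4 libraries between 0.957 and 1.06 times the depth of WT 0 h replicate 1, so depth differed little. None of the 11 housekeeping genes tested was called, among them HPRT1 with 61.3 and 67.1 FPKM at 0 h and 52.7 and 57 FPKM at 6 h, although 2 of the 11 were called lower after TPM rescaling, and 3 were called higher and 1 lower without WT 0 h replicate 1. Vimentin (VIM), a mesenchymal filament protein, stood at 1656 and 1543 FPKM at 0 h, whereas ESR1, the estrogen receptor of luminal cells, and CDH1, the epithelial cadherin, were at most 0.0246 FPKM in the 4 libraries. Other luminal markers were present: 7 of the 12 listed were tested, of which 1 was higher and 2 were lower. Among them KRT19, a keratin, stood at 66 and 59.3 FPKM at 0 h. Of the 12 blood cell markers 1 was tested and not called, and PTPRC, the pan-leukocyte phosphatase, was at most 0.0113 FPKM. The endothelial and fibroblast markers and the gut markers likewise had 1 of 12 tested each and none called, and DCN and VIL1 were listed at 0 in the 4 libraries.

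The 12 genes with the largest rise were mainly secreted signals and regulators of inflammation and cell survival. IL8, a chemokine that draws neutrophils (chromosome 4, 74606223 to 74609433 of hg19), went from 1.76 and 1.49 FPKM at 0 h to 1605 and 1594 FPKM at 6 h. That is 985-fold as a ratio of mean FPKM, and a log2 change of 9.26 on the log2(FPKM + 1) scale (SE 0.076, adjusted p = 1.1e-08 in limma). At 6 h IL8 thus stood not far below VIM, which had 2354 and 2358 FPKM. CSF2, the gene of the growth factor GM-CSF (chromosome 5, 131409485 to 131411863), went from 1.61 and 2.18 FPKM to 540 and 522 FPKM (log2 change 7.53, SE 0.10, adjusted p = 3.9e-08). IL1B, a fever-inducing cytokine (chromosome 2, 113587337 to 113594356), went from 0.737 and 0.453 FPKM to 167 FPKM in both 6 h libraries (log2 change 6.72). ICAM1, the surface protein to which leukocytes attach (chromosome 19, 10381517 to 10397291), went from 1.56 and 1.91 FPKM to 260 and 256 FPKM (log2 change 6.57). That the 2 groups do not overlap in these genes follows from how they were chosen, since both 6 h libraries had to lie on the same side of the 0 h libraries. CCL20, a chemokine for lymphocytes and dendritic cells, was listed at 0 in both 0 h libraries and stood at 83.3 and 92.6 FPKM at 6 h (adjusted p = 3.9e-08), so no fold is given.

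The remaining 7 of the 12 serve survival, chemotaxis and growth. TRAF1 and BIRC3 encode an adaptor and an inhibitor of cell death that act at TNF receptors: TRAF1 went from 1.13 and 0.962 FPKM to 81.5 and 80.8 FPKM (log2 change 5.33), and BIRC3 from 0.263 and 0.435 FPKM to 46.4 and 51.5 FPKM (log2 change 5.21). BCL2A1, a relative of BCL2 that protects from apoptosis, was listed at 0.150 and 0 FPKM and rose to 30.5 and 40.2 FPKM. These genes thus started under 2 FPKM and ended above 30 FPKM. CXCL1, another neutrophil chemokine, rose from 0.347 and 0.484 FPKM to 47 and 44.2 FPKM, and CCL2, which draws monocytes, from 0.909 and 2.33 FPKM to 59.2 and 58.5 FPKM. PTGS2, the inducible enzyme of prostaglandin synthesis, rose from 0.476 and 0.608 FPKM to 36.7 and 37.3 FPKM (log2 change 4.62). CSF1, the growth factor of macrophages, was the only one of the 12 with a 0 h level above 10 FPKM: it stood at 15.1 FPKM in both 0 h libraries and at 302 and 286 FPKM at 6 h (log2 change 4.20, SE 0.068, adjusted p = 1.0e-07). BCL2A1 was no longer called in the fit of all 12 libraries.

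**Figure D2:**
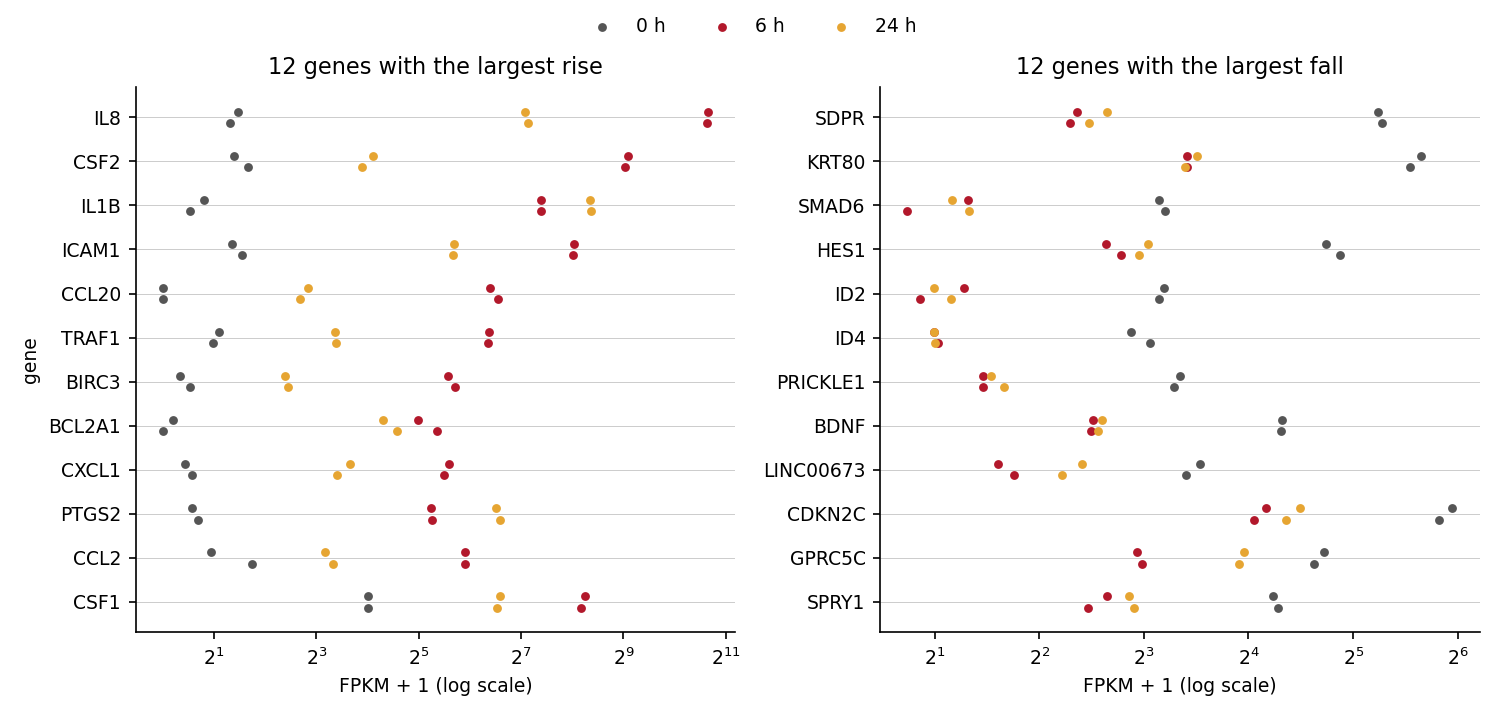
FPKM + 1 on a log axis for the 12 genes with the largest rise (left) and the 12 with the largest fall (right), 1 point per library, in WT cells at 0 h (grey), 6 h (red) and 24 h (yellow). The red points lie clear of the grey ones, which the choice of these genes required, and IL1B and PTGS2 are the rising genes whose 24 h points lie beyond those at 6 h.

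Several chemokines of 1 gene cluster rose. Of the 24 listed chemokines 8 were tested: 6 were higher, all at least 2-fold, 1 was lower and 1 was not called, with a median log2 change of 4.26 against -0.0047 over all tested features. The other 16 were under the filter, and since several of the 6 passed it through their 6 h level, the median carries little weight: without a filter it was 0.27. The summed level of the list was 8.54 and 8.83 FPKM at 0 h and 1846 and 1836 FPKM at 6 h, most of it IL8. IL8, CXCL1, CXCL3 and CXCL2 lie within 357 kb of each other on chromosome 4 (74606223 to 74964997). CXCL2 went from 0.894 and 0.701 FPKM to 28.1 and 25.2 FPKM, and CXCL3 from 0.470 and 0.430 FPKM to 19.5 and 17.8 FPKM. Both attract neutrophils, as IL8 and CXCL1 do. Between them lie CXCL6, PF4V1 and PPBP, listed at 0 in the 4 libraries, CXCL5 at most 0.0237 FPKM, and PF4 at 0.254 and 0.443 FPKM at 0 h and 0.244 and 0.240 FPKM at 6 h. CXCL1, CXCL2 and CXCL3 are close copies of one another, so that reads may have been split among them and their separate levels are less certain than their sum.

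Rising genes lay near each other more often than tested genes in general. Of the 302 genes 61 (20.2%) had another rising gene within 200 kb, against 10.6% of all tested genes that had a rising gene in that range. For falling genes the shares were 3.92% (4 genes) and 1.88%. A group of growth factor genes lay next to the chemokines on chromosome 4. AREG, a ligand of the EGF receptor, went from 0.216 and 0.396 FPKM to 4.36 and 4.19 FPKM, and EREG, 80 kb away and a ligand of the same receptor, from 11 and 12.7 FPKM to 31.8 and 30.1 FPKM. A copy of AREG further along the chromosome was listed at 0, so its reads may have been given to the first copy. On chromosome 11 BIRC3 stood beside BIRC2, a related inhibitor of apoptosis that went from 16.2 and 18.9 FPKM to 44.2 and 53 FPKM, and 626 kb from MMP13, a collagenase that rose too. MMP7, MMP8, MMP12, MMP20 and MMP27, which lie between them, were listed at 0 in the 4 libraries. These clusters were picked after the values were seen.

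**Figure D3:**
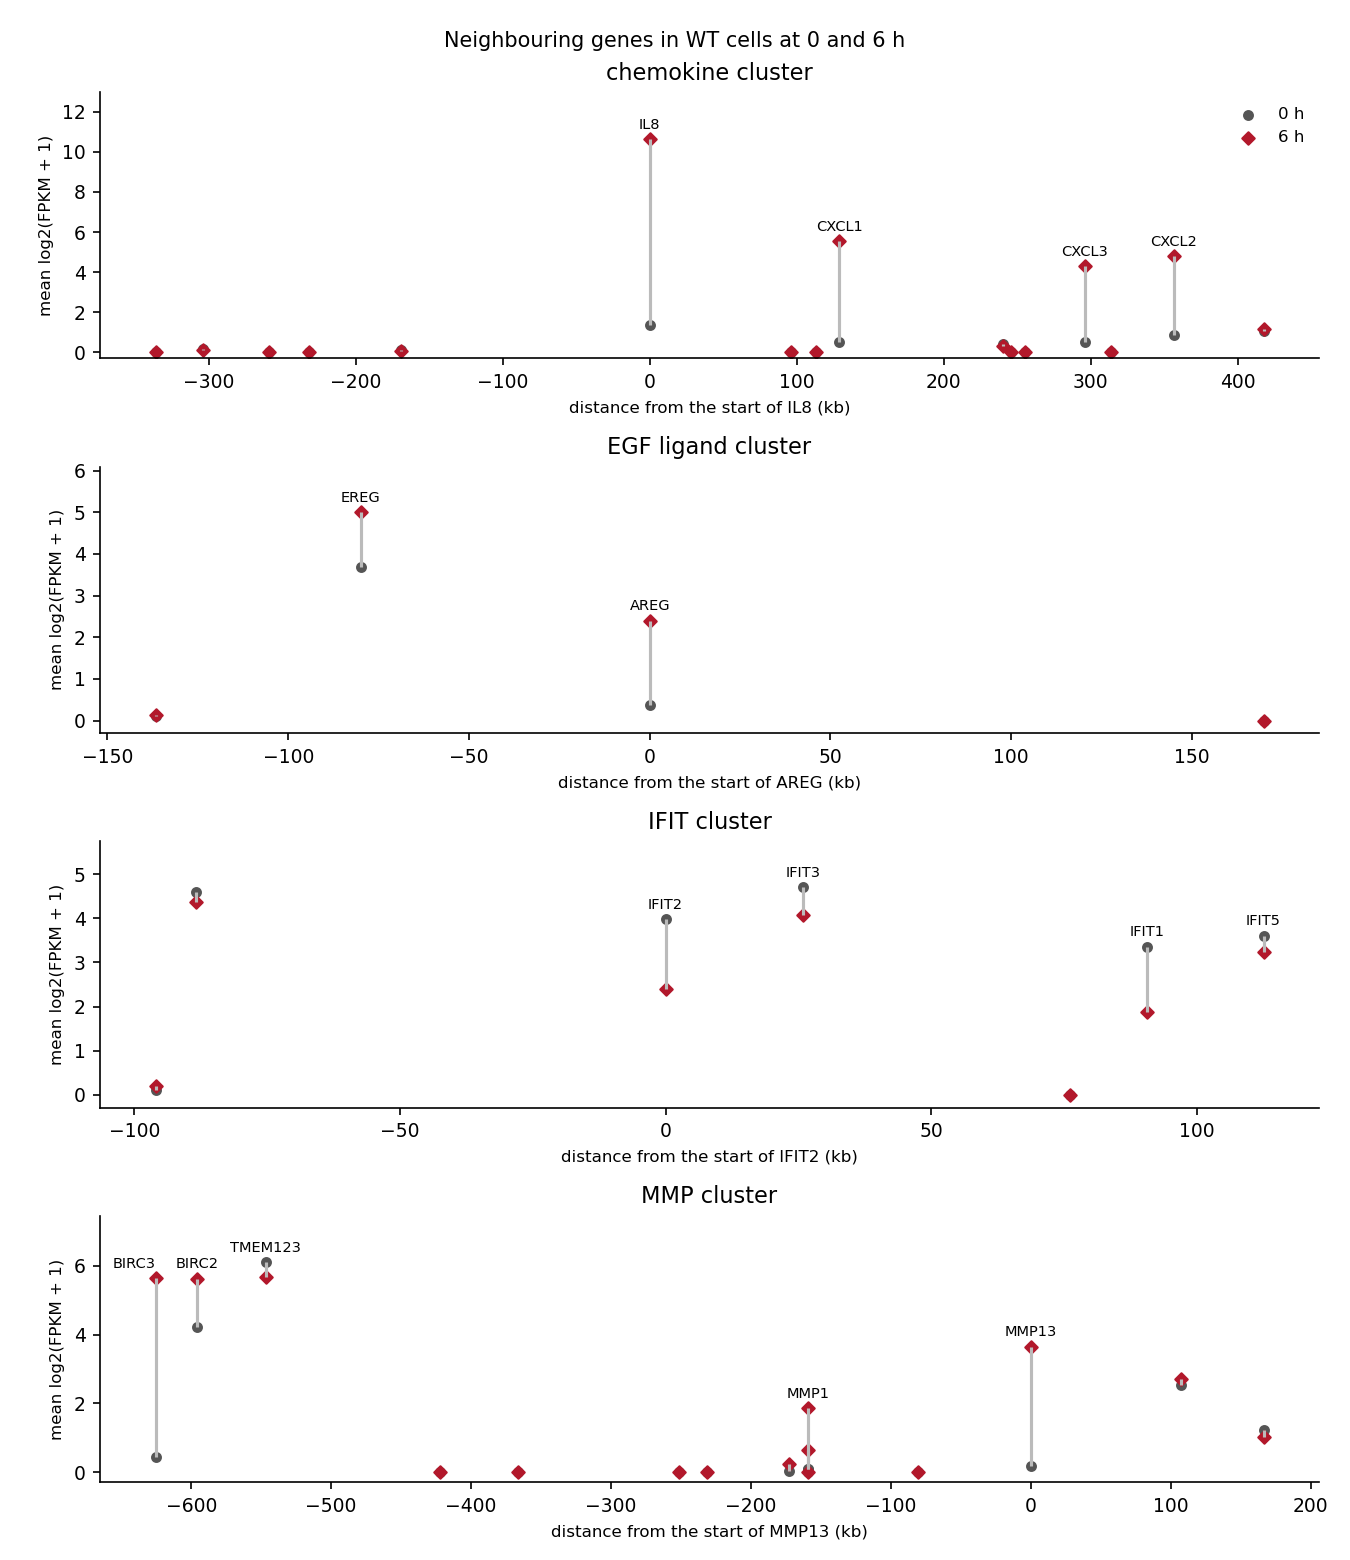
Mean log2(FPKM + 1) over 2 libraries at 0 h (grey circles) and 6 h (red diamonds) for every feature around IL8, AREG, IFIT2 and MMP13, by distance in kb from the start of that gene; called genes carry their names. IL8, CXCL1, CXCL3 and CXCL2 rose while the features between them stayed near 0, and the IFIT genes fell together.

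NF-kB genes rose as a group, and the rise took in the factors, their inhibitors and the targets alike. NF-kB is a family of paired subunits held in the cytoplasm by inhibitors of the IkB type. Of 27 listed genes 24 were tested, 22 were higher (15 of them at least 2-fold) and none was lower, with a median log2 change of 1.59 (1.44 without a filter). Among the subunits, RELB went from 1.94 and 1.91 FPKM to 45.3 and 40.4 FPKM (log2 change 3.91, SE 0.088, adjusted p = 5.4e-07), NFKB2 from 11.6 and 11.3 FPKM to 137 and 126 FPKM, and NFKB1 from 12.5 and 11.9 FPKM to 41.9 and 43 FPKM. RELA, the subunit with the highest 0 h level of these, moved least, from 30.8 and 31.1 FPKM to 54.4 and 51 FPKM (log2 change 0.75). The inhibitors rose more than RELA did: NFKBIA went from 28.1 and 28.3 FPKM to 204 and 209 FPKM (log2 change 2.83, SE 0.065, adjusted p = 6.3e-07), and NFKBIE from 2.31 and 2.41 FPKM to 21.9 and 19.2 FPKM. TNFAIP3, an enzyme that edits ubiquitin chains and ends NF-kB signalling, went from 0.784 and 0.687 FPKM to 21.9 and 21.4 FPKM. TNIP1, its partner protein, went from 49.0 and 42.4 FPKM to 304 and 293 FPKM. The kinase subunits CHUK and IKBKG were the 2 tested members that were not called. The count of 22 was the same without each library in turn and after TPM rescaling, and it was 18 with all 12 libraries.

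The promoters of several of these genes carried the NF-kB motif close to the start of transcription. The sequences are RefSeq promoters of GRCh38.p14, from 250 bases before to 50 bases after the start, whereas the levels above were measured against hg19. Shown are 30 bases on each side of the match nearest the start, 5′ to 3′ on the strand of the gene, with the match in capitals:
CCL20: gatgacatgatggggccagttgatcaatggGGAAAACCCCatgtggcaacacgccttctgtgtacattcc
BIRC3: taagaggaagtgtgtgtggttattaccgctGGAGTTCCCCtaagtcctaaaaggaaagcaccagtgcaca
CXCL1: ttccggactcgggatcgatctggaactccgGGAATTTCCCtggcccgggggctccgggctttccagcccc
NFKBIA: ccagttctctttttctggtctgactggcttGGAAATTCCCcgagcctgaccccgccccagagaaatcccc
TNFAIP3: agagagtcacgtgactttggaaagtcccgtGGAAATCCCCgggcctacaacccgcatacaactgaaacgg
These 5 were chosen because the genes rose and a match was found. They lie at chr2:227813733-227813802, chr11:102317319-102317388, chr4:73869285-73869354, chr14:35404791-35404860 (minus strand) and chr6:137867174-137867243, and the matches begin 79, 135, 78, 81 and 55 bases before the start. In each the letters shown are the reverse complement of the NF-kB consensus. Searched on both strands, the motif was in 6 of 21 NF-kB list promoters (28.6%) and in 12.8% of the 8826 promoters of tested genes. Only 232 of the 302 rising genes had a promoter sequence in the table (76.8%), under the 80% asked for, so the shares over that group are void and not given. Of the 102 falling genes 82 had a sequence, and 8.54% of them held the NF-kB motif. IL8, CSF2, IL1B, ICAM1, TRAF1, BCL2A1 and PTGS2, among the 12 largest rises, had a sequence without a match. The search took only exact fits to GGGRNNYYCC, with R for A or G, Y for C or T and N for any base. Variants of these letters and sites outside the window would be missed, so the lack of a match does not mean the lack of a site. HES1 and ID2, among the 12 largest falls, had a match. A match is a description of letters and not a site that was shown to be bound.

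Cytokines other than chemokines rose as well. Of 32 listed interleukins, colony-stimulating factors and TNF family ligands 15 were tested, 12 were higher (11 at least 2-fold) and 1 was lower, with a median log2 change of 2.16. The other 17 were under the filter, and the median was 0.87 without a filter and 4.22 with a pseudocount of 0.1. IL6, the driver of the acute phase response, went from 0.740 and 0.774 FPKM to 15.2 and 16.5 FPKM (log2 change 3.26, SE 0.092, adjusted p = 1.6e-06). LIF, a cytokine of the same family, started higher and went from 30.5 and 29.2 FPKM to 156 and 148 FPKM (log2 change 2.31). IL32 went from 0.241 and 0.171 FPKM to 17.6 and 13.9 FPKM. CSF3, the growth factor of neutrophils, and LTB, a ligand of the TNF family, were listed at 0 in both 0 h libraries and stood at 2.13 and 2.34 FPKM and at 5.45 and 5.26 FPKM at 6 h. All 3 of the colony-stimulating factors in the list (CSF1, CSF2 and CSF3) were therefore higher at 6 h, from 0 h levels that ranged from 0 to 15.1 FPKM. The receptors changed less: of 23 tested cytokine and TNF receptors 11 were higher, 3 of them at least 2-fold, and 3 were lower, with a median log2 change of 0.28. TNFRSF9, a costimulatory receptor, went from 0.0589 and 0.0513 FPKM to 2.67 and 3.05 FPKM, and TNFRSF10B, a receptor of the death ligand TRAIL, from 29.8 and 30 FPKM to 63 and 62.9 FPKM. IFNGR2, a chain of the interferon gamma receptor, went from 18.5 and 20.6 FPKM to 50.5 and 49.1 FPKM, and IL7R from 8.10 and 8.94 FPKM to 17.1 and 17.6 FPKM. IL32, IFNGR2 and IL7R were no longer called in the fit of all 12 libraries.

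Protein kinase C and calcineurin are the targets of the stimulus. Of 8 tested isoforms of protein kinases C and D 3 were higher and 2 were lower, with a median log2 change of -0.07, beside 20.8% higher and 18.8% lower over all tested features, so the counts of so few genes do not set the list apart. PRKCA, a calcium-dependent isoform, stood at 33.7 and 35.3 FPKM at 0 h and 22.3 and 22.8 FPKM at 6 h (log2 change -0.59, SE 0.070, adjusted p = 0.0010). PRKCE, an isoform that needs no calcium, stood at 6.22 and 6.91 FPKM and at 2.67 and 2.62 FPKM. PRKCD, of the same class as PRKCE, went the other way, from 21.4 and 18.6 FPKM to 40.1 and 40.8 FPKM (log2 change 0.98). The falls of PRKCA and PRKCE were not called with all 12 libraries, whereas the rise of PRKCD was. Among 12 tested NFAT and calcineurin genes 3 were higher and 2 lower, shares near the same background, and the lower count was 0 without WT 0 h replicate 2 or without either 6 h library. NFATC2, a calcium-activated transcription factor, went from 2.05 and 2.17 FPKM to 5.25 and 5.45 FPKM (log2 change 1.03, SE 0.092, adjusted p = 0.00032) and was the only member changed at least 2-fold. RCAN1, an inhibitor of calcineurin, stood at 14.9 and 16.3 FPKM and at 18.5 and 19 FPKM, a call (adjusted p = 0.040) that was lost under TPM rescaling and in 3 of the 4 fits that left out a library. Of the 22 tested genes of calcium stores and transport, ATP2B1, a pump that removes calcium from the cell, rose most among 6 higher genes (4 without either 6 h library), from 19.8 and 22.9 FPKM to 57.2 and 59 FPKM, and its relative ATP2B4 went from 6.55 and 6.54 FPKM to 13.8 and 13.7 FPKM. STIM1, the sensor of empty calcium stores, stood at 11.7 and 11.5 FPKM and at 11.1 and 11.9 FPKM, with an adjusted p of 0.92.

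Many AP-1 and other early response factors were higher at 6 h than at 0 h, and no earlier time was sampled. AP-1 is a dimer of FOS and JUN proteins. Of 17 listed AP-1 factors 12 were tested, 8 were higher and none was lower, with a median log2 change of 0.92 (0.54 without a filter). FOSL1 was the most abundant, going from 104 and 100 FPKM to 468 and 449 FPKM (log2 change 2.16, SE 0.069, adjusted p = 2.8e-06). JUNB went from 12.9 and 13.8 FPKM to 89.3 and 84 FPKM (log2 change 2.61), and MAFF, a small partner of the family, from 14.9 and 14.7 FPKM to 44 and 41.9 FPKM. JUN itself moved little, from 23.7 and 21.3 FPKM to 35 and 31.1 FPKM, and FOS was low, with 0.751 and 1.57 FPKM at 0 h and 1.72 and 1.86 FPKM at 6 h (adjusted p = 0.13). The members that rose most were thus FOSL1 and JUNB, not FOS and JUN themselves. Of 20 other tested early genes 12 were higher and 3 lower, with a median log2 change of 0.73. EGR1, a zinc finger factor, went from 4.38 and 5.69 FPKM to 17.6 and 17.2 FPKM, and NR4A1, a nuclear receptor, from 0.875 and 0.457 FPKM to 4.18 and 4.05 FPKM. KLF6, a zinc finger factor, went from 21.2 and 24.4 FPKM to 74 and 73.2 FPKM. ZFP36, which shortens the life of cytokine transcripts, went from 3.31 and 2.85 FPKM to 12.8 and 13.6 FPKM, and IER3 from 145 and 133 FPKM to 588 and 549 FPKM. MYC, a growth regulator, stood at 32 and 29.6 FPKM and at 34.4 and 32.9 FPKM (adjusted p = 0.22). JUN, ATF3, NR4A1 and ZFP36 were not called with all 12 libraries.

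ETS1 was the ETS factor with the largest change, and the family went both ways. ETS factors share a DNA-binding domain that reads the letters GGAA, and ETS1 is the gene whose upstream element the study deleted in its ΔCRE cells. ETS1 (chromosome 11, 128328656 to 128457453) went from 24 and 23.7 FPKM to 139 and 145 FPKM, 5.96-fold as a ratio of mean FPKM. Its log2 change was 2.53 (SE 0.067, adjusted p = 1.2e-06 in limma). Both 6 h libraries lay far above both 0 h libraries. Of the 16 tested ETS genes 6 were higher and 6 lower, with a median log2 change of -0.20. Without WT 6 h replicate 1 only 3 were higher and 3 lower. ELK3 went from 20.9 and 21.3 FPKM to 40.6 and 37 FPKM, while ETV1 fell from 10.4 and 11.4 FPKM to 3.54 and 3.22 FPKM (log2 change -1.44) and ELF1 from 10.4 and 11.4 FPKM to 5.99 and 6.50 FPKM. ETS2, the nearest relative of ETS1, stood at 11 and 12 FPKM and at 10.1 and 9.77 FPKM (adjusted p = 0.11). Among ETS genes, only ETS1 rose at least 2-fold.

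Inhibitors of MAP kinase signalling rose in part. Of 18 tested phosphatases and feedback inhibitors 9 were higher and 2 lower, with a median log2 change of 0.20. DUSP5, a nuclear phosphatase of ERK, went from 17.2 and 16.9 FPKM to 169 and 172 FPKM (log2 change 3.25, SE 0.066, adjusted p = 3.1e-07). ERRFI1, which blocks the EGF receptor, went from 52.1 and 59.5 FPKM to 375 and 391 FPKM (log2 change 2.76), and SPRED3 from 1.16 and 0.819 FPKM to 3.48 and 3.43 FPKM. Others of the same class did not follow. DUSP6, the cytoplasmic counterpart of DUSP5, stood at 58.1 and 65.1 FPKM and at 60.1 and 56.4 FPKM (adjusted p = 0.48), and SPRY1 fell from 17.8 and 18.4 FPKM to 5.28 and 4.53 FPKM (log2 change -1.70). SPRY4, a relative of SPRY1, went from 48.1 and 48.5 FPKM to 85.8 and 84.7 FPKM. On the receptor side of this pathway, 5 of 7 tested genes of the EGF receptor family were higher and 2 lower. The ligands HBEGF and NRG1 were each a little over 2-fold higher: HBEGF went from 74.2 and 70.4 FPKM to 155 FPKM in both libraries, and NRG1 from 33.6 and 32.5 FPKM to 71.5 and 76.3 FPKM. EGFR, the receptor, went from 19.8 and 20 FPKM to 30.8 and 30.6 FPKM (log2 change 0.60). EGFR, EREG and SPRY4 were not called with all 12 libraries.

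Genes that act on the matrix around the cell showed their strongest rise in the plasminogen system, in which activators turn plasminogen into the protease plasmin and serpins inhibit them. Of 12 listed genes 8 were tested, 7 were higher (5 at least 2-fold) and none was lower, with a median log2 change of 1.55. PLAUR, the receptor of urokinase, went from 77.4 and 69.3 FPKM to 376 and 378 FPKM (log2 change 2.35, adjusted p = 3.3e-06 in limma). PLAT, the tissue activator, went from 8.81 and 9.50 FPKM to 45.4 and 43.8 FPKM, and PLAU, the urokinase activator, from 202 and 190 FPKM to 380 and 382 FPKM (log2 change 0.96). The matrix metalloproteinases were mostly silent: 8 of 22 listed genes were tested, 5 were higher and 2 lower. MMP13 went from 0.135 and 0.141 FPKM to 11.4 and 11.6 FPKM (log2 change 3.46, adjusted p = 1.3e-06 in limma). MMP1, the interstitial collagenase, went from 0.0331 and 0.104 FPKM to 2.75 and 2.48 FPKM, and its feature shares its coordinates with MMP3 (0.0693 and 0.0362 FPKM at 0 h, 0.533 and 0.590 FPKM at 6 h), so the split between them is uncertain. MMP14, which sits in the cell membrane, went from 31.5 and 27.5 FPKM to 66.6 and 62.6 FPKM. MMP9 fell short of the filter, with 0.0265 and 0.0277 FPKM at 0 h and 0.408 and 0.576 FPKM at 6 h. TIMP4, an inhibitor of these enzymes, fell from 14.8 and 15.8 FPKM to 6.43 and 8.22 FPKM. Of 9 tested ADAM and ADAMTS genes ADAMTS9 rose from 0.584 and 0.660 FPKM to 3.33 and 3.51 FPKM and ADAMTS15 fell from 5.42 and 4.99 FPKM to 1.45 and 1.31 FPKM. MMP1 was not called with all 12 libraries.

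Adhesion and matrix genes changed in opposite directions within families. Over all tested features 20.8% were higher and 18.8% were lower, and beside these shares the counts of such short lists carry little weight. Of 11 tested integrin subunits 4 were higher and 3 lower, with 2 and 2 without WT 6 h replicate 1. ITGA2, a collagen receptor chain, went from 17.6 and 20.4 FPKM to 53 and 54.1 FPKM (log2 change 1.45), and ITGA5, a fibronectin receptor chain, from 18.3 and 17.9 FPKM to 49.2 and 46.1 FPKM. ITGB4 and ITGA6, which together form the laminin receptor of epithelial cells, fell: ITGB4 from 40.3 and 39.4 FPKM to 18.2 and 16.4 FPKM (log2 change -1.16) and ITGA6 from 31.5 and 33.9 FPKM to 22 and 21.4 FPKM. Among 12 tested collagens 6 were higher and 3 lower, led by COL7A1 (0.952 and 0.881 FPKM to 5.48 and 5.14 FPKM). The genes of epithelial-mesenchymal transition were likewise split, with 6 of 13 higher and 2 lower, and 3 higher without WT 6 h replicate 1. CLDN1, a tight junction protein, went from 0.785 and 0.929 FPKM to 10.5 and 11.1 FPKM (log2 change 2.67), and FN1, fibronectin, from 30.9 and 34.3 FPKM to 77.9 and 79.2 FPKM. SNAI2, a repressor of epithelial genes, fell from 7.84 and 7.86 FPKM to 1.94 and 1.65 FPKM (log2 change -1.67, SE 0.097, adjusted p = 4.6e-05), while SNAI1 stood at 3 and 2.35 FPKM and at 2.59 and 3.43 FPKM (adjusted p = 0.51). Among 13 angiogenic genes 5 were higher and 5 lower, with 3 and 2 without WT 6 h replicate 1: VEGFC went from 6.01 and 5.88 FPKM to 34.6 and 37.7 FPKM, PGF fell from 22.8 and 24.8 FPKM to 8.74 and 8.72 FPKM, and VEGFA went from 13.7 and 14.4 FPKM to 21.8 and 20 FPKM. ITGB4, CLDN1 and VEGFA were not called with all 12 libraries.

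The 12 genes with the largest fall included a caveolar protein, a keratin and several transcriptional regulators. SDPR, a protein of caveolae (chromosome 2, 192699032 to 192712006), fell from 36.7 and 37.7 FPKM to 4.15 and 3.9 FPKM, 10.8% of the 0 h level (log2 change -2.93, SE 0.077, adjusted p = 1.1e-06). KRT80, an epithelial keratin, fell from 49.1 and 45.6 FPKM to 9.68 FPKM in both libraries, and HES1, a repressor that answers to Notch, from 25.8 and 28.3 FPKM to 5.23 and 5.86 FPKM. SMAD6, ID2 and ID4 are genes switched on by bone morphogenetic proteins: SMAD6 fell from 7.83 and 8.23 FPKM to 1.49 and 0.671 FPKM, ID2 from 8.16 and 7.87 FPKM to 1.44 and 0.822 FPKM, and ID4 from 6.35 and 7.32 FPKM to 0.996 and 1.05 FPKM. BMP4, one of those ligands, stood at 17.1 FPKM in both 0 h libraries and at 4.51 and 4.94 FPKM at 6 h (log2 change -1.66). It was named after its values were seen, and a link between its fall and that of SMAD6, ID2 and ID4 was not tested. CDKN2C, an inhibitor of cyclin-dependent kinases, fell from 60.8 and 55.5 FPKM to 17 and 15.7 FPKM, and BDNF, a nerve growth factor, from 19 and 18.9 FPKM to 4.72 and 4.65 FPKM. The remaining members of the 12 were PRICKLE1, LINC00673, GPRC5C and SPRY1, with log2 changes of -1.85, -1.79, -1.71 and -1.70. LINC00673 was not called with all 12 libraries.

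Members of the wider TGF-beta superfamily changed in both directions. Of 28 tested ligands, receptors and SMADs 9 were higher and 9 lower, with a median log2 change of -0.08, and without WT 6 h replicate 1 the counts were 6 and 5. INHBA, which encodes activin A, went from 0.487 and 0.538 FPKM to 16.6 and 16.3 FPKM (log2 change 3.53, SE 0.089, adjusted p = 9.1e-07), and FST, which binds and blocks activin, from 9.80 and 10.3 FPKM to 57 and 56.1 FPKM (log2 change 2.38). INHBB, the other activin chain, fell from 4.78 and 4.06 FPKM to 1.29 and 1.69 FPKM. TGFB1 went from 35.7 and 35.3 FPKM to 74.8 and 71.2 FPKM, and GDF15, a stress-induced ligand, from 3.53 and 4.28 FPKM to 16.2 FPKM in both libraries. ENG, endoglin, a co-receptor of the family, stood at 24.2 and 22.3 FPKM and at 20.8 and 19.5 FPKM (adjusted p = 0.090), a difference that was called under 4 of the alternatives, TPM rescaling among them. GDF15 was not called with all 12 libraries. BMP4, INHBB and TGFB1 were named after their values were seen.

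Genes of the Wnt pathway changed in both directions, with more falls than rises. Of 23 tested frizzled receptors, Wnt ligands and pathway genes 11 were lower (4 at least 2-fold) and 7 higher (1 at least 2-fold), with a median log2 change of -0.14. LGR4, the receptor of R-spondins, fell from 17.6 and 20.8 FPKM to 5.33 and 5.86 FPKM (log2 change -1.61, SE 0.10, adjusted p = 6.7e-05). LRP5, a co-receptor, fell from 37.1 and 34.1 FPKM to 14.8 and 12.9 FPKM, and FZD2 from 8.38 and 8.78 FPKM to 3.15 and 2.96 FPKM. WNT5A, a ligand, fell from 2.08 and 2.73 FPKM to 0.541 and 0.599 FPKM. Against these, the receptor FZD8 went from 2.45 and 2.36 FPKM to 4.28 and 3.66 FPKM (log2 change 0.54, adjusted p = 0.0071 in limma), a call that was lost without WT 6 h replicate 1, and the ligand WNT7B from 5.38 and 4.82 FPKM to 12 and 10.5 FPKM. Without WT 6 h replicate 1 the counts were 8 lower and 3 higher. In the YAP pathway 6 of 16 tested genes were lower and 2 higher, and 3 were lower without either 6 h library. CTGF, a matrix protein and classic YAP target, fell from 132 and 141 FPKM to 57.9 and 57.3 FPKM (log2 change -1.23), and AJUBA from 45 and 47.5 FPKM to 23.2 and 23.6 FPKM, whereas CYR61 changed only from 592 and 582 FPKM to 471 and 466 FPKM, a call that was lost without either of the 6 h libraries. The Notch genes tested were 6, of which 4 were higher and 1 lower, and 2 were higher without either 6 h library. NOTCH1, a receptor, went from 3.85 and 4.09 FPKM to 7.99 and 7.03 FPKM, and JAG1, a ligand, from 25.6 and 24.8 FPKM to 41.5 and 41.4 FPKM, while HES1, their target gene, fell as given above. JAG1 and AJUBA were not called with all 12 libraries.

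Genes of cell division moved down by small steps. Of 21 tested cyclins, cyclin-dependent kinases and inhibitors 5 were higher and 9 lower, with a median log2 change of -0.12. Among the inhibitors, CDKN1A rose strongly, whereas CDKN2C fell (log2 change -1.77), as given above. CDKN1A, the gene of the inhibitor p21 (chromosome 6, 36644237 to 36655116), went from 12.8 and 12 FPKM to 129 and 124 FPKM (log2 change 3.25, SE 0.072, adjusted p = 5.0e-07). Of 39 tested mitosis genes 30 were lower, 3 were higher and 6 were not called, with a median log2 change of -0.38, and none passed 2-fold in either direction. TOP2A, which untangles DNA, fell from 146 and 159 FPKM to 76.7 and 82.3 FPKM (log2 change -0.93, SE 0.078, adjusted p = 0.00023). KIF20A and KIF11, motor proteins of the spindle, stood at 84.1 and 85.2 FPKM against 46.2 and 47.8 FPKM and at 37.4 and 42.6 FPKM against 22.4 and 23.7 FPKM. The proliferation marker MKI67 was not called and stood at 70.6 and 71.8 FPKM and at 73.0 and 72.3 FPKM (adjusted p = 0.75). CCNB1, the mitotic cyclin, stood at 151 FPKM in both 0 h libraries and at 127 and 140 FPKM at 6 h (adjusted p = 0.11). The count of 30 was 14 without WT 6 h replicate 1, 20 without WT 6 h replicate 2, 33 after TPM rescaling and 3 with all 12 libraries. In DNA replication 16 of 39 tested genes were lower and 2 higher, with a median log2 change of -0.15. PRIM1, the primase, fell from 26.2 and 26.6 FPKM to 16.2 and 17.4 FPKM, and CDC6, a loader of the replication helicase, stood at 63.3 and 60.8 FPKM and at 58 and 61 FPKM (adjusted p = 0.53). That count of 16 was 3 without WT 6 h replicate 1, 6 without WT 6 h replicate 2 and 10 without WT 0 h replicate 2. CCND1, a cyclin of early G1, went from 88.7 and 96.8 FPKM to 145 and 134 FPKM, and its partner CDK6 from 8.25 and 10.3 FPKM to 18.7 and 17.8 FPKM. TOP2A, KIF20A, KIF11 and CCND1 were not called with all 12 libraries.

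The promoters of the mitosis genes shared a short motif. The cell cycle homology region CHR, TTTGAA, which is read by repressor complexes of resting cells, was found on either strand in 22 of 33 mitosis promoters with a sequence (66.7%) and in 9.28% of the 8826 promoters of tested genes. It was in 9.76% of the 82 promoters of genes at least 2-fold lower. The ETS motif CCGGAAGT was in 1 of those 82 promoters and in 9.71% of all, and the AP-1 motif TGANTCA, with N for any base, in 3 of the 82 and in 4.29% of all. These shares describe letters in a window of 300 bases and carry no test.

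Genes of the endoplasmic reticulum stress response rose together. Unfolded protein in this compartment activates the sensors IRE1, PERK and ATF6, which raise chaperones and the ATF4 and CHOP factors. Of 33 listed genes, all tested, 27 were higher (10 at least 2-fold) and 2 lower, with a median log2 change of 0.74. HSPA5, the chaperone BiP (chromosome 9, 127997127 to 128003666), went from 296 and 295 FPKM to 1314 and 1379 FPKM, a log2 change of 2.18 (SE 0.074, adjusted p = 3.7e-06). Both 6 h libraries lay more than 1000 FPKM above the 0 h libraries. HERPUD1 and SDF2L1, which serve degradation and folding in the same compartment, went from 23.6 and 24.6 FPKM to 84.6 and 85.7 FPKM and from 47.1 and 42.1 FPKM to 159 and 156 FPKM. HSP90B1 went from 446 and 454 FPKM to 849 and 916 FPKM (log2 change 0.97) and CALR from 551 and 480 FPKM to 883 and 872 FPKM (log2 change 0.77). XBP1, the factor that IRE1 splices, went from 47.1 and 44 FPKM to 102 and 104 FPKM. On the ATF4 side, DDIT3, which encodes CHOP, went from 22.2 and 20.2 FPKM to 52.7 and 55.9 FPKM, and PPP1R15A, which restarts translation, from 36.2 and 33.5 FPKM to 155 and 142 FPKM (log2 change 2.06). ASNS, an amino acid synthetase and ATF4 target, stood at 23.1 and 22.6 FPKM and at 24.9 and 28.4 FPKM (adjusted p = 0.089), and DDIT4, an inhibitor of mTOR signalling, fell from 61.5 and 57.7 FPKM to 28.5 and 29.1 FPKM (log2 change -1.02). The count of 27 was between 21 and 26 without each library in turn, 22 after TPM rescaling and 11 with all 12 libraries.

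The element that ATF6 reads in such promoters, the ER stress element, has CCAAT and CCACG set 9 bases apart. It was searched for after the rise of these genes had been seen, was found in 6 of 30 list promoters with a sequence (20%) and in 14 of the 8826 promoters of tested genes (0.159%). Shown are RefSeq promoter windows of GRCh38.p14, from 4 genes, with the match in capitals, with up to 30 bases on each side, 5′ to 3′ on the strand of the gene:
HSPA5: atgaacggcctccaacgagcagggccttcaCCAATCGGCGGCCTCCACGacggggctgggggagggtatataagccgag
HSP90B1: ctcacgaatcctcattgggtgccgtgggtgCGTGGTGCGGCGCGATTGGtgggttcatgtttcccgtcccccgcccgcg
CRELD2: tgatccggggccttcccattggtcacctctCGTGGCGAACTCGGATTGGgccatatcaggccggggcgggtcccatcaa
CALR: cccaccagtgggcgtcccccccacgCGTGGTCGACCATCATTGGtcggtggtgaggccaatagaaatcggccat
They lie at chr9:125241361-125241439 (minus strand), chr12:103930291-103930369, chr22:49918524-49918602 and chr19:12938359-12938432, and were chosen because the genes rose and held a match. In HSPA5 the element reads forward and begins 66 bases before the start. In the other 3 it is on the opposite strand and begins 89, 80 and 225 bases before the start. CRELD2, a secreted stress protein, went from 17.9 FPKM in both libraries to 30.7 and 30.5 FPKM (log2 change 0.74). Of the 14 tested genes with the element, HSPA5, FICD, XBP1, HSP90B1, CALR, CRELD2, ERO1LB, SERP1, CANX and TMEM120A were called higher, TRIM5 was called lower (log2 change -0.30), and ALG12, EIF2A and ZNF17 were not called.

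Metabolic genes changed little. Over all tested features 20.8% were higher and 18.8% were lower, and the glycolysis and hypoxia counts lie near these shares. In cholesterol and fatty acid synthesis 9 of 29 tested genes were higher and 5 lower, with a median log2 change of 0.10 that became -0.02 after TPM rescaling, and 5 were higher without either 6 h library. SREBF1, a regulator of fatty acid synthesis, fell from 42.6 and 37.1 FPKM to 25.1 and 23.4 FPKM. Among 34 genes of glycolysis and the hypoxia response 8 were higher and 6 lower, with 4 and 4 without either 6 h library and 13 higher without WT 0 h replicate 1. HK2, the enzyme that starts glycolysis, went from 8.43 and 8.54 FPKM to 25.2 FPKM in both libraries (log2 change 1.47, SE 0.072, adjusted p = 2.3e-05). ADM, CA12 and EGLN3, which are raised by low oxygen, fell at least 2-fold: ADM from 17.6 and 20.7 FPKM to 7.71 and 8.52 FPKM, CA12 from 11.5 and 10.9 FPKM to 5.01 and 5.12 FPKM, and EGLN3 from 4.07 and 3.64 FPKM to 1.41 and 1.23 FPKM. Of 45 tested subunits of oxidative phosphorylation 1 was higher, 5 were lower and 39 were not called, and the lower count became 20 after TPM rescaling and 1 without either 6 h library. MYC and ribosome biogenesis genes had 10 of 35 higher and none lower, a count that was 1 without either 6 h library, 2 without WT 0 h replicate 2 and 4 after TPM rescaling. EGLN3 was not called with all 12 libraries.

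Interferon-stimulated genes fell more often than they rose, and those of the IFIT cluster fell together. Of 24 tested genes 10 were lower and 5 higher, with a median log2 change of -0.17. IFIT2, which binds foreign RNA (chromosome 10, 91061706 to 91069033), fell from 15 and 14.6 FPKM to 4.18 and 4.36 FPKM (log2 change -1.59, SE 0.080, adjusted p = 2.6e-05), and IFIT1 from 8.70 and 9.80 FPKM to 2.47 and 2.83 FPKM. Their neighbours in the cluster, looked at after the values were seen, were IFIT3, IFIT5 and LIPA. IFIT3 and IFIT5 fell less, from 24.5 and 26.1 FPKM to 15.8 and 15.9 FPKM and from 10.8 and 11.6 FPKM to 8.31 and 8.54 FPKM. LIPA, a lysosomal lipase, stood at 21.2 and 25.1 FPKM and at 19.5 and 20.2 FPKM and was not called. Against this direction, IRF9, a subunit of the interferon-activated factor, went from 6.48 and 5.98 FPKM to 14.1 and 16.6 FPKM, and IRF1 from 6.07 and 5.51 FPKM to 11 and 11.2 FPKM. IRF9 and IRF1 were not called with all 12 libraries, and the count of 10 was 6 without WT 6 h replicate 2. HLA-B and TAP1, which present antigen and were named after their values were seen, went from 19.7 and 18.8 FPKM to 50.4 and 48.4 FPKM and from 9 and 8.22 FPKM to 19.1 and 18.8 FPKM.

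Smaller groups showed the following, to be read beside 20.8% higher and 18.8% lower over all tested features. Of 14 tested BCL2 family genes and apoptosis regulators 7 were higher and 1 lower, with a median log2 change of 0.38. MCL1, a short-lived survival protein, went from 59.5 and 62.7 FPKM to 134 and 133 FPKM (log2 change 1.11), BBC3, which promotes death, from 2.96 and 2.29 FPKM to 6.97 and 6.47 FPKM, and BCL2L11, which also promotes death, fell from 3.25 and 3.48 FPKM to 2 and 1.72 FPKM. Among 7 tested genes of prostaglandin synthesis and signalling PTGS2 was the only one higher, and PTGES, which acts after PTGS2, fell from 64.7 and 61.2 FPKM to 37.5 and 37.2 FPKM. Of 22 actin and SRF target genes 7 were higher and 3 lower (3 and 1 without WT 6 h replicate 1), with none at least 2-fold changed, and ACTB, which encodes actin itself, had a log2 change of -0.02 (SE 0.087, adjusted p = 0.85). Of 10 tested enzymes of DNA methylation and demethylation 1 was higher and 2 lower: TET2, which oxidises methylcytosine, fell from 2.93 and 3.20 FPKM to 1.33 and 1.53 FPKM (log2 change -0.74, adjusted p = 0.0022 in limma), and DNMT3A, a methyltransferase, stood at 7.58 and 7.94 FPKM and at 10.9 and 8.64 FPKM (adjusted p = 0.084). CD44, a receptor of hyaluronan and a marker of these cells, went from 87.5 and 89.3 FPKM to 188 and 190 FPKM. BBC3 and TET2 were not called with all 12 libraries.

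Levels at 24 h, from a further 2 WT libraries, show which 6 h levels were passing. The contrast of 24 h with 6 h was fitted with limma in the 6 WT libraries, and it shares the 6 h libraries with the values above. IL8 stood at 134 and 139 FPKM at 24 h, 11.7-fold below 6 h but still far above 0 h, and CSF2 at 16.1 and 13.9 FPKM, 35.4-fold below 6 h (adjusted p = 5.1e-07 and 1.0e-06). ETS1 stood at 36.2 and 39.7 FPKM, 3.75-fold below 6 h (log2 difference -1.88, SE 0.066, adjusted p = 5.6e-06), and ICAM1 at 50.4 and 49.8 FPKM, 5.15-fold below. NFKBIA, RELB and FOSL1 likewise had higher levels at 6 h than at 24 h, with 78.3 and 74.2 FPKM, 22.3 and 21.7 FPKM and 182 and 165 FPKM at 24 h. Other genes kept climbing. IL1B stood at 326 and 330 FPKM at 24 h, 1.97-fold above 6 h (adjusted p = 0.00028), PTGS2 at 89.5 and 95 FPKM, 2.49-fold above, and MMP1 at 43.6 and 43.7 FPKM, 16.7-fold above (log2 difference 3.63, adjusted p = 1.0e-06). JUNB stood at 76.1 and 69.4 FPKM at 24 h (adjusted p = 0.027 against 6 h) and EGR1 at 17.8 and 17.9 FPKM (adjusted p = 0.83). Of the genes that fell most, SDPR stood at 5.28 and 4.55 FPKM at 24 h (adjusted p = 0.054 against 6 h) and KRT80 at 10.4 and 9.53 FPKM (adjusted p = 0.70). HSPA5 stood at 422 and 428 FPKM at 24 h (log2 difference -1.66, adjusted p = 5.8e-06).

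**Figure D4:**
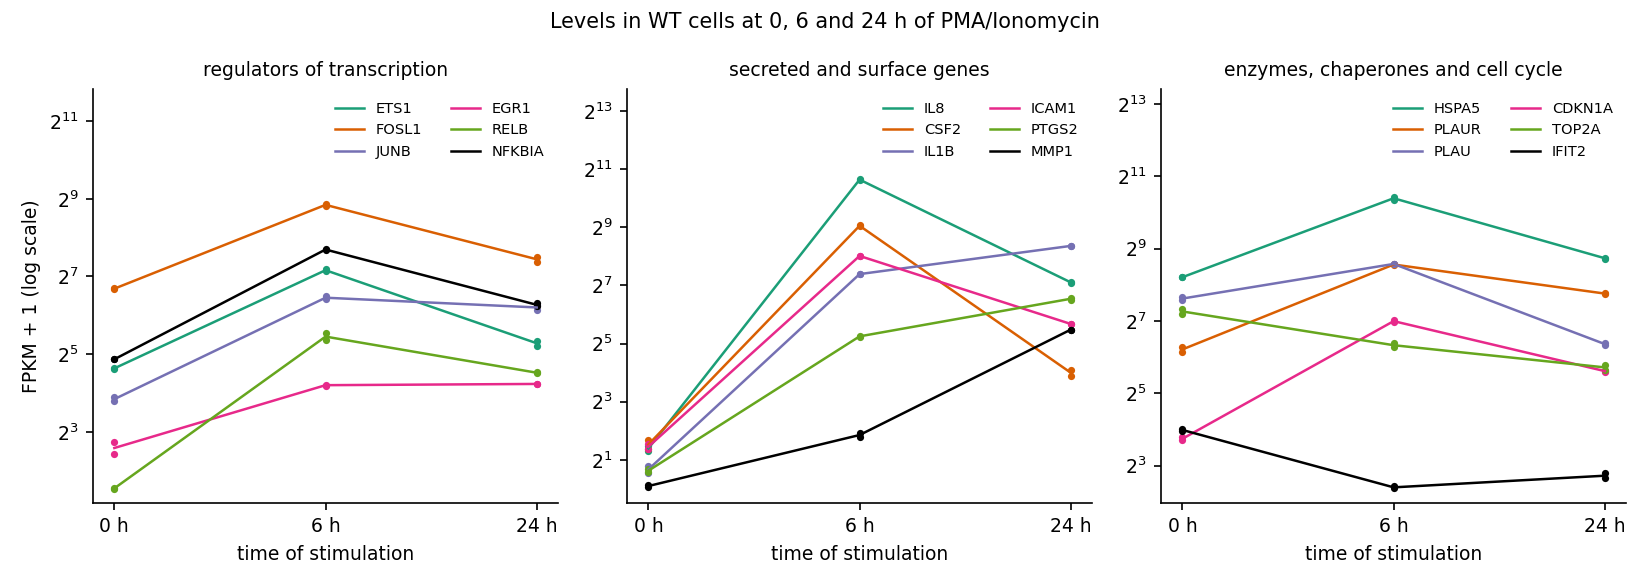
FPKM + 1 on a log axis in WT cells at 0, 6 and 24 h for 18 genes, 1 point per library and a line through the means of the log values. IL8, CSF2, ETS1 and HSPA5 peak at 6 h, IL1B, PTGS2 and MMP1 are highest at 24 h, and TOP2A and IFIT2 are below their 0 h level at both later times.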

How the data were processed

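RNA from MDA-MB-231 cells was made into stranded, polyadenylated RNA libraries and sequenced. The authors mapped the reads to hg19 with TopHat, estimated expression with Cufflinks and deposited 1 table of FPKM values per library. The gene annotation, the depth and any further scaling between libraries are not given in the sources used here. No column of the table was left unmatched, although 2 ΔCRE column names differ from the labels and were matched by what remained; they enter only the fits with other libraries.

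From the deposited FPKM, log2(FPKM + 1) of the 2 WT 0 h and 2 WT 6 h libraries was fitted with limma 3.58.1 in R 4.3.3 (empirical Bayes with trend) for features with a mean of at least 1 FPKM over the 4 libraries, and p-values were adjusted by Benjamini-Hochberg over all of them. An exact permutation test of 2 against 2 libraries cannot pass the threshold, so none was used. The fit was tested on simulated data with a log2 change of 1, up or down, planted in 200 of 11160 features. Of these 99.2% were recovered, and 7.49% of the calls were false, somewhat above the threshold. Smaller changes were not planted, so the simulation cannot say how well they are called. It also changed far fewer features than the 4427 called in the data, with independent noise and no shift in scaling between libraries. Its share of false calls therefore does not carry over to the calls reported here. Same-numbered libraries did not deviate together (correlation -0.0265).

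The text names the 12 largest changes in each direction (at a level of at least 5 FPKM in 1 group), up to 4 called members with the largest change of each list, and fixed key genes. Genes outside that rule were named after their values were seen: CXCL2, CXCL3, BIRC2, NFKB2, NFKBIE, TNFAIP3, TNIP1, CHUK, IKBKG, CSF3, LTB, BMP4, INHBB, TGFB1, WNT7B, HSP90B1, CALR, CRELD2, ASNS, DDIT4, IFIT3, IFIT5, HLA-B and TAP1. The members and lists were chosen with earlier results of these data known. Promoters are RefSeq sequences matched by symbol or synonym. A few genes are not reported here.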

Additional observations from a re-analysis of the deposited data

Results flagged for a closer look

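For 13 of the 201 named genes, the only ones searched, the direction from 0 h to 6 h was opposite to that from 6 h to 24 h, such that the 24 h level also lay on the other side of the 0 h level, with both steps and the difference of 24 h from 0 h called by limma. Higher at 6 h and below the 0 h level at 24 h were PLAU (log2 difference of 24 h minus 6 h -2.22), COL4A1 (-1.93), CDK6 (-1.27), COL6A1 (-1.03), EGFR (-0.92), CCND1 (-0.83), RCAN1 (-0.82), TET3 (-0.77), RRP9 (-0.71) and NOP16 (-0.59). Lower at 6 h and above the 0 h level at 24 h were KRT19 (1.08), EGLN3 (1.44) and IFI44 (1.5). PLAU, the urokinase activator, stood at 202 and 190 FPKM at 0 h, 380 and 382 FPKM at 6 h and 82.5 and 79.9 FPKM at 24 h. IFI44, an interferon-stimulated gene, stood at 12.4 FPKM in both 0 h libraries, at 6.47 and 5.59 FPKM at 6 h and at 18.6 and 19.2 FPKM at 24 h. The 6 h calls of some were fragile: those of RCAN1 and RRP9 were lost after TPM rescaling and in 3 of the 4 fits that left out a library, and that of NOP16 without either 6 h library. Both steps use the same 6 h libraries.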

How the results depend on the processing

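No named gene reversed its direction between the main fit and an alternative when it was called in at least 1 of them. Only the other pseudocount, quantile normalization, TPM rescaling and the fits without a library could reverse a direction. The remaining alternatives keep the log2 change of each gene and alter only its test, so they say nothing about direction. Changes of sign in genes called in neither were not counted. With all 12 libraries 910 features were called, 626 higher and 284 lower, and with a minimum fold change of 1.5 in the test 453, 340 higher and 113 lower. Leaving out 1 library at a time gave 2196 to 4278 calls, 1276 to 2327 higher and 920 to 1951 lower, lowest without WT 6 h replicate 1. The features at least 2-fold lower numbered 250 with a pseudocount of 0.1, 68 with a mean of at least 5 FPKM and 218 after TPM rescaling. Of the 428 features changed at least 2-fold, 331 were called with all 12 libraries, 396 with the minimum fold change and 425 to 427 without each library in turn. Of 182 named genes with a call, 78 lost it with all 12 libraries, 77 with the minimum fold change, 15 without a filter and 10 to 23 without a library. The 12-library fit includes ΔCRE 0 h replicate 1, which stands apart. Without it, 425 of the 428 were called. With the replicate number as a block, 5241 features were called, 2671 higher and 2570 lower, and no named gene lost its call. Only the number is shared, and the labels do not say that it pairs libraries. Depth is known only relative to another library, so no limit of detection can be given for genes listed at 0.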
